A study of Mus musculus with 17 samples.

Results

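The 10 genes described here encode transporters, channels, junction proteins and enzymes that mark astrocytes in their resting, supportive state: Slc1a2, Slc1a3, Glul, Gja1, Gjb6, Cldn10, Aqp4, Slc14a1, Aldh1l1 and S100b. They were chosen by name, with earlier results of these data known. Each symbol was matched to the files' Ensembl identifiers with the GENCODE M21 annotation. All 10 were found among the 46073 genes listed, and all 10 are among the 19064 genes that passed the filter on low values. Levels are in FPKM (fragments per kilobase of transcript, scaled by the number of mapped reads), a unit that corrects for gene length and depth, so levels of different genes can be set side by side.

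The study concerned the microRNA miR-211 in the mouse forebrain, and sequenced polyadenylated RNA from the frontal cortex of mice, all males of the FVB/N strain. The controls (Ct, 6 libraries) carried only the CamK driver, the source of a transactivator made in forebrain excitatory neurons. The dTg-211 mice (dTg, 7 libraries) carried that driver and a transgene through which it switches on miR-211, and 3 more libraries came from dTg-211 mice given doxycycline for 4 days (dTgDox), which silences such a transgene. The driver is therefore common to all 3 groups, its promoter is a neuronal one, and age is not given in the sources used here. No driver-only mice with doxycycline are among the groups, so the drug and the loss of miR-211 cannot be told apart. Markers of other cell types, given below, also differ between dTgDox and the other groups, and their part was not tested.

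Astrocytes clear glutamate from synapses through the transporters GLT-1 and GLAST and turn it into glutamine, which neurons take up again. They are joined into a network by gap junctions built of connexins, and their endfeet on blood vessels carry water channels. These proteins are found throughout the brain, but their amounts differ between brain regions, and some of them change when astrocytes react to injury.

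Depth, estimated from the FPKM value of 1 read in single-exon genes, was 21.3 to 30.9 M reads a library, and 15762 to 16085 genes reached 1 FPKM. The library labelled dTg replicate 1 stands apart: its values are the same in all 46073 genes as those filed under the driver-free NTg label, and its cerebellar neuron markers summed to 2668 FPKM against 12.2 to 38.2 in the other 15 libraries. It is shown apart, and the comparisons use Ct replicates 1 to 6, dTg replicates 2 to 7 and dTgDox replicates 1 to 3. The headers of dTg replicates 5, 6 and 7 share 1 number, whose meaning is not stated, and nothing in the labels says that libraries of a group came from separate animals. P-values therefore measure the spread between these libraries, part of which may be technical. In bulk tissue, fewer astrocytes and less RNA per astrocyte cannot be told apart.

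With miR-211 switched on, none of the 10 genes passed the test against the controls. Between dTgDox and dTg the glutamate genes Slc1a2, Slc1a3 and Glul stayed within the spread of the libraries, while the urea transporter gene Slc14a1 rose 2.33-fold and S100b, Cldn10, Gja1 and Aqp4 rose by 1.25-fold to 1.35-fold. Aldh1l1, a widely used general label of astrocytes, fell to 0.70 of its dTg level. Folds and log2 differences come from a limma fit to log2(FPKM + 0.5), a scale that understates the change of low genes such as Slc14a1.

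In counts, 0 of 10 genes passed an adjusted p of 0.05 in dTg against Ct, where 0 of 19064 genes (0%) did. There, 607 of the 19064 genes had an unadjusted limma p under 0.05, and the smallest limma adjusted p was 0.313. Those 607 are fewer than the share of 0.05 expected with no differences at all. In dTgDox against dTg, 5 of 10 rose and 1 fell, where 18.9% of all genes tested passed (9.65% higher and 9.22% lower). In dTgDox against Ct, 5 also rose and 1 fell, where 19.7% of all genes passed (9.86% higher and 9.85% lower). The median log2 difference of the 10 genes was 0.06 in dTg against Ct, 0.35 in dTgDox against dTg and 0.36 in dTgDox against Ct, and that of all genes lay between -0.0079 and -0.0045. Both comparisons with doxycycline share the same 3 dTgDox libraries, so they are not independent of each other. Because the 10 genes were chosen with earlier results of these data known, the shares of all genes beside them are a description and no test. Without dTgDox replicate 1 the count passing went from 6 to 3 in both, and without dTgDox replicate 3 it was 3 in dTgDox against Ct. With the library labelled dTg replicate 1 added to dTg, 2 genes (Cldn10 and Aldh1l1) passed against dTg and 3 (Slc14a1, Cldn10 and Gja1) against Ct.

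**Figure D1:**
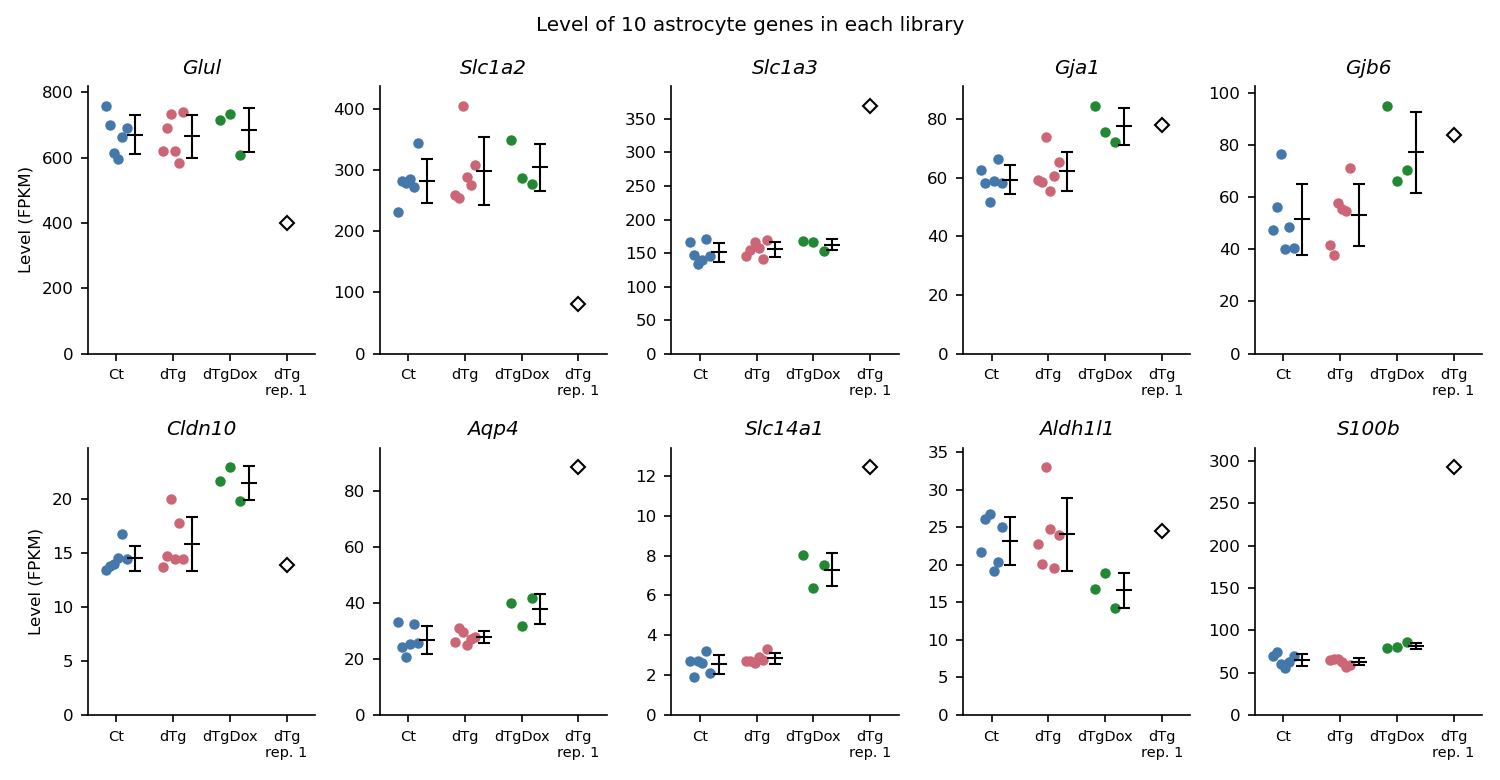
Level of each of the 10 genes in FPKM (vertical axes, linear from 0) in every library of Ct (n = 6), dTg (n = 6) and dTgDox (n = 3), with the mean and SD of each group as bars and the library labelled dTg replicate 1 as an open diamond. Slc14a1 and S100b in dTgDox lie above, and Aldh1l1 below, all 12 libraries without doxycycline, while Glul, Slc1a2 and Slc1a3 overlap between the 3 groups.

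Over individual libraries, all 3 dTgDox values lay above all 12 values without doxycycline for 2 of the 10 genes (Slc14a1 and S100b) and below them for 1 (Aldh1l1). Over all genes tested, 8.06% lay above and 8.06% lay below in that way. For Gja1, Cldn10 and Aqp4, 2 of the 3 dTgDox values lay above all 12. In the plot of fitted differences the 3 glutamate genes sit close to 0 in every comparison, and Gjb6 has the widest interval.

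**Figure D2:**
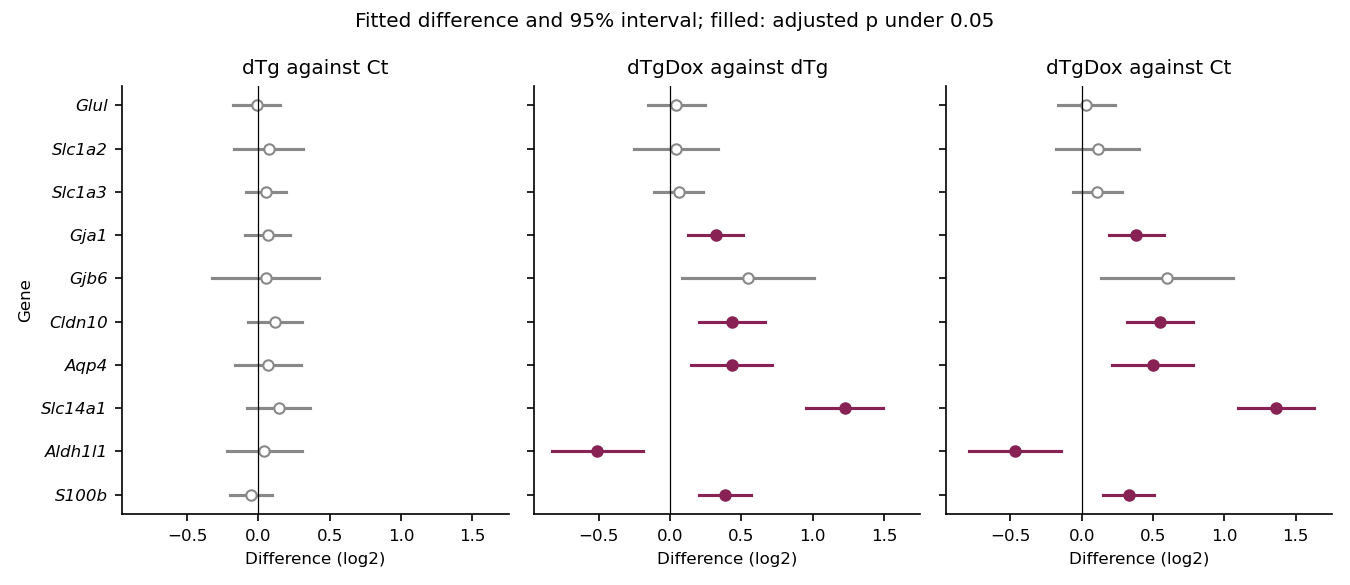
Fitted log2 difference (horizontal axis) with its 95% interval for each gene in dTg against Ct, dTgDox against dTg and dTgDox against Ct; filled points passed an adjusted p of 0.05 in limma. In dTg against Ct all 10 intervals span 0, and in both comparisons with doxycycline 5 genes are filled on the higher side and Aldh1l1 on the lower.

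The dTgDox libraries also differed from the others in markers of other cell types, and the part of this in the results on the 10 genes was not tested. Of 5 hippocampal CA pyramidal markers, 4 were tested and all 4 rose in dTgDox against dTg, and the list summed to 11.1 to 14.6 FPKM in Ct, 9.86 to 20.3 in dTg and 87.8 to 117 in dTgDox. All 5 dentate granule cell markers rose, with sums of 2.80 to 4.06 in Ct, 2.56 to 4.45 in dTg and 41.8 to 58.9 in dTgDox. Neither hippocampal list overlaps between dTgDox and the other groups, although all samples are labelled as frontal cortex.

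Oligodendrocyte markers summed to 1119 to 2431 FPKM in Ct, 1009 to 2763 in dTg and 2822 to 4240 in dTgDox, again without overlap, although only 1 of 10 passed the test against dTg. Choroid plexus and ependyma markers summed to 4.63 to 93.6 in Ct, 2.42 to 128 in dTg and 28.3 to 1971 in dTgDox, with 1 of 5 risen, and the highest sum was that of dTgDox replicate 3. Cortical excitatory neuron markers summed to 567 to 839, 575 to 788 and 566 to 608 in the same order, with 1 of 8 risen and 3 fallen. These ranges overlap, as do the endothelial sums of 104 to 137, 98.8 to 143 and 108 to 115 (0 of 7 changed) and the microglial sums of 168 to 220, 199 to 222 and 204 to 295 (1 of 7 risen). None of these markers was at 0 in any of the 15 libraries. A list of 8 astrocyte markers (Gfap, Aldoc and 6 of the 10 genes) summed to 1036 to 1249 in Ct, 1069 to 1442 in dTg and 1310 to 1580 in dTgDox. As it holds 6 of the 10 genes, this sum is no separate check on them. Gfap alone stood at 19.0 to 49.0 FPKM in Ct, 20.0 to 42.0 in dTg and 127 to 276 in dTgDox. Aldoc stood at 440 to 583, 475 to 634 and 477 to 551 in the same order.

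Bergmann glia markers summed to 2.80 to 4.03 FPKM in Ct, 2.23 to 4.19 in dTg and 4.87 to 7.28 in dTgDox, with 2 of 3 risen against dTg, and striatal medium spiny neuron markers to 94.0 to 714, 91.4 to 396 and 67.0 to 74.7, with 0 of 9 passing. For both sums dTgDox does not overlap the other groups, higher for the Bergmann glia markers and lower for the striatal ones. This does not hold for every gene in them: the striatal gene Drd2 and the Bergmann glia gene Dao overlapped. Meningeal fibroblast markers summed to 9.42 to 22.3, 8.75 to 20.7 and 14.8 to 66.2, with 2 of 4 risen, and olfactory bulb neuron markers to 2.23 to 155, 2.23 to 80.4 and 3.07 to 3.96, with 0 of 4 passing. Oligodendrocyte precursor markers summed to 17.5 to 23.5, 17.8 to 24.0 and 17.8 to 22.3, with 0 of 3 passing. Of 8 cerebellar neuron markers 5 were tested and 1 fell, with sums of 12.2 to 19.3, 12.3 to 38.2 and 17.0 to 20.9, and Gabra6 and Barhl1 were at 0 in some libraries. These last 4 lists overlap between dTgDox and the other groups. The highest cerebellar sums of the 15 libraries were those of dTg replicates 7 (38.2) and 4 (34.7), ahead of dTgDox replicate 1 (20.9).

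**Figure D3:**
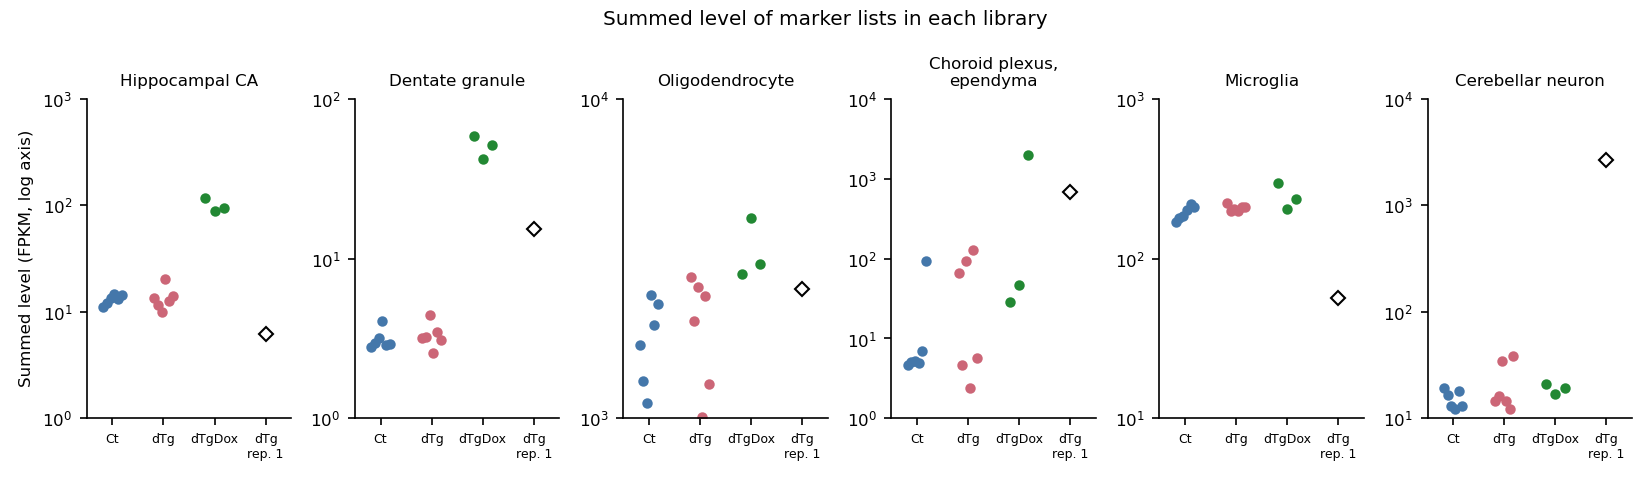
Summed FPKM of 6 marker lists (vertical axes, log scale) in each library of Ct, dTg and dTgDox and in the library labelled dTg replicate 1 (open diamond). Both hippocampal lists are higher in every dTgDox library than in any Ct or dTg library, and the cerebellar list reaches 2668 FPKM in dTg replicate 1 against at most 38.2 in the others.

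The order of the mean levels was Glul, Slc1a2, Slc1a3, S100b, Gja1, Gjb6, Aqp4, Aldh1l1, Cldn10 and Slc14a1 in Ct and in dTg. By mean FPKM over the 15 libraries, Glul ranked 63 among all 46073 genes, Slc1a2 220 and Slc1a3 523, while Slc14a1 ranked 12402, within the 16390 genes that had a mean of at least 1 FPKM. The ranges of S100b and Gja1 and those of Gja1 and Gjb6 overlapped in all 3 groups, as did those of Aqp4 and Aldh1l1 in Ct and dTg and those of Aldh1l1 and Cldn10 in dTg. In dTgDox, Cldn10 stood above Aldh1l1, with no overlap between their ranges. Of the 12 libraries without doxycycline, dTg replicate 4 was the highest in 4 of the 10 genes (Aldh1l1, Slc1a2, Gja1 and Cldn10), and Ct replicate 3 was the lowest in 3 (Aqp4, Slc1a3 and Gja1) and the highest in Gjb6. The cerebellar neuron markers of dTg replicate 4 summed to 34.7 FPKM, against 12.2 to 19.3 in Ct, and the part of this in its levels was not tested.

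The genes of glutamate uptake and of glutamine synthesis were the most abundant of the 10 and did not pass the test in any comparison. Slc1a2 (ENSMUSG00000005089, GRCm38 chr2:102658659-102790784) encodes GLT-1, the main glutamate transporter of forebrain astrocytes. Its level was 231 to 344 FPKM in Ct (median 280), 255 to 405 in dTg (median 282), and 348, 287 and 277 in the 3 dTgDox libraries. The groups overlapped, and the highest value of the 15 libraries was that of dTg replicate 4. The log2 difference of dTgDox from dTg was 0.04 (SE 0.14, limma adjusted p 0.878), with a 95% interval of the fold from 0.84 to 1.26, and that of dTgDox from Ct was 0.11 (SE 0.14, adjusted p 0.628), with a fold from 0.88 to 1.32. The sign against dTg turned without dTg replicate 3 (-0.0018) or dTgDox replicate 1 (-0.0612).

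Slc1a3 (ENSMUSG00000005360, chr15:8634124-8710764) encodes GLAST, the related transporter that dominates in the cerebellum. It stood at 134 to 171 FPKM in Ct (median 147), 141 to 169 in dTg (median 156), and 168, 166 and 153 in dTgDox. All 3 dTgDox values lie inside the Ct range. Its fold in dTgDox over dTg had a 95% interval of 0.93 to 1.18 (log2 difference 0.06, SE 0.08, limma adjusted p 0.655), and that over Ct one of 0.96 to 1.22 (0.11, SE 0.08, adjusted p 0.373). The ratio of Slc1a2 to Slc1a3 was 1.89 ± 0.35 in Ct (SD, n = 6), 1.91 ± 0.27 in dTg (n = 6) and 1.87 ± 0.18 in dTgDox (n = 3), so the means of the groups differed by less than the SD within them.

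**Figure D4:**
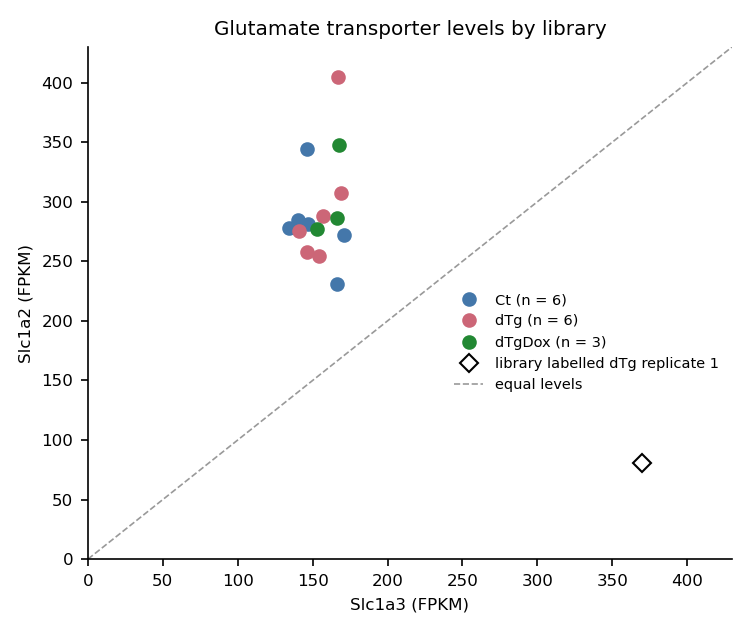
Slc1a2 (vertical axis, FPKM) against Slc1a3 (horizontal axis, FPKM) in each library, with a dashed line where both are equal. The 15 libraries of Ct, dTg and dTgDox lie together above the line, with Slc1a2 from 231 to 405 FPKM, and the library labelled dTg replicate 1 lies below it at 80.8 FPKM of Slc1a2 and 370 of Slc1a3.

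Glul (ENSMUSG00000026473, chr1:153899944-153909723) encodes glutamine synthetase, which makes glutamine from the glutamate taken up. Its level was 595 to 759 FPKM in Ct (median 678), 583 to 739 in dTg (median 657), and 716, 732 and 607 in dTgDox. All 3 dTgDox values lie inside the ranges of both other groups. The log2 difference of dTgDox from dTg was 0.04 (SE 0.09, limma adjusted p 0.793), with a 95% interval of the fold from 0.90 to 1.18, and that from Ct was 0.03 (SE 0.09, adjusted p 0.862). The sign turned without dTgDox replicate 2, to -0.0066 against dTg and -0.0200 against Ct, and against Ct also without dTgDox replicate 1 (-0.0034) or Ct replicate 4 (-0.0028).

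Slc1a2 and Slc1a3 are those of the 10 genes whose longest annotated 3' untranslated region holds a match to the miR-211 seed, the bases 2 to 8 through which a microRNA pairs with its targets. The mature sequence and that of its close relative miR-204-5p, which has the same seed, are shown with the seed in capitals, from RefSeq (GRCm38.p6, miR-211-5p at chr7:64205831-64205852 and miR-204-5p at chr19:22750610-22750631, both on the plus strand).
mmu-miR-211-5p: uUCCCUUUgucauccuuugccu
mmu-miR-204-5p: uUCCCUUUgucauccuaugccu
The sites follow, read 5′ to 3′ in the sense of the gene, with the seed match AAAGGGA in capitals (GRCm38, Slc1a2 at chr2:102783528-102783556 on the plus strand and Slc1a3 at chr15:8635118-8635146 on the minus strand).
Slc1a2 site: caagaagggccAAAGGGAttctgctcagc
Slc1a3 site: ccaacattacaAAAGGGAggattctttga
Such a match was found in 2 of 10 genes and in 2375 of 14333 tested genes with an annotated 3' untranslated region (16.6%). Longer regions have more room for a match by chance. The region is 9250 bases long in Slc1a2 and 2008 in Slc1a3, against a median of 1183 for all genes. With miR-211 switched on, the log2 difference from Ct was 0.07 for Slc1a2 (SE 0.11) and 0.05 for Slc1a3 (SE 0.07), with limma adjusted p of 1 for both. The 95% intervals of the fold were 0.89 to 1.24 for Slc1a2 and 0.94 to 1.14 for Slc1a3. A letter match is a description and not a measured site, and the driver acts in neurons. Mature microRNAs are not caught by polyA selection, so the level of miR-211 itself was not analysed here.

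Of 16 further genes of the glutamate and glutamine cycle, all tested, 1 rose and 1 fell in dTgDox against dTg, and the median log2 difference was -0.12. For this list and those that follow, the share of all genes tested that passed was 18.9% against dTg and 19.7% against Ct. The lists were not tested as sets. Slc1a1, the glutamate transporter of neurons, rose from 29.1 ± 2.19 FPKM in dTg to 38.4 ± 1.07 in dTgDox, a log2 difference of 0.40 (limma adjusted p 0.00104). Got1, the cytosolic aspartate aminotransferase, fell from 171 ± 9.40 to 149 ± 13.1 FPKM, a log2 difference of -0.20 (limma adjusted p 0.035). Against Ct, 1 gene rose and 2 fell, and in dTg against Ct none of the 16 passed.

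Of the gap junction genes, Gja1 was higher in dTgDox and Gjb6 did not pass the test. Gja1 (ENSMUSG00000050953, chr10:56377330-56402513) encodes connexin 43, the main gap junction protein of astrocytes. Its promoter is shown as that of a gene that rose, from RefSeq (GRCm38.p6, chr10:56377050-56377349, plus strand, 250 bases before the start and 50 after), with CpG pairs and the start base in capitals.
Gja1 promoter: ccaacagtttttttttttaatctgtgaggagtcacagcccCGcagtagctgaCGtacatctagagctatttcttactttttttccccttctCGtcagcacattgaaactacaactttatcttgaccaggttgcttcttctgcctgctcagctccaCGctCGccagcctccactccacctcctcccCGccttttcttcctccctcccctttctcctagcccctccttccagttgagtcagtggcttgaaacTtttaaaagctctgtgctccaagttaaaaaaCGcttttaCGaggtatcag
Gja1 stood at 51.6 to 66.4 FPKM in Ct (median 58.6), 55.3 to 74.0 in dTg (median 59.9), and 84.6, 75.7 and 72.3 in dTgDox. Of the 3 dTgDox libraries, 2 were above all 12 libraries without doxycycline, and replicate 3 was below dTg replicate 4 alone. The rise over dTg was 1.25-fold, a log2 difference of 0.32 (SE 0.09, limma adjusted p 0.0234), and that over Ct 1.30-fold, a difference of 0.38 (SE 0.09, adjusted p 0.0084). The call against dTg was lost without dTgDox replicate 1 (adjusted p 0.133) or dTgDox replicate 2 (0.0538), and that against Ct without dTgDox replicate 1 (0.0609).

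Gjb6 (ENSMUSG00000040055, chr14:57123303-57133611) encodes connexin 30, the partner of connexin 43 in astrocyte gap junctions. Of the 10 genes it varied most within each group, with an SD of 20.2% to 26.6% of the mean against 8.16% to 10.7% for Gja1. It stood at 39.9 to 76.5 FPKM in Ct (median 47.8), 37.8 to 71.2 in dTg (median 54.9), and 94.9, 66.0 and 70.4 in dTgDox. One dTgDox library lay above all others, and the other two lay within the ranges of Ct and dTg. The log2 difference from dTg was 0.55 (SE 0.22, limma adjusted p 0.0925) and that from Ct 0.60 (SE 0.22, adjusted p 0.0653), with an unadjusted 95% interval of the fold over dTg from 1.06 to 2.01. Ct replicate 3 held the highest value of the 12 libraries without doxycycline, and without it Gjb6 passed, with adjusted p of 0.0481 against dTg and 0.018 against Ct. The ratio of Gja1 to Gjb6 was 1.22 ± 0.31 in Ct (SD, n = 6), 1.21 ± 0.25 in dTg (n = 6) and 1.02 ± 0.13 in dTgDox (n = 3), and its ranges overlapped.

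Of 10 other connexin and pannexin genes, all tested, 1 rose in dTgDox against dTg and 2 against Ct, and none passed in dTg against Ct. Panx2, a pannexin channel gene of the brain, rose from 51.1 ± 7.41 FPKM in dTg to 73.7 ± 3.95 in dTgDox, a log2 difference of 0.54 (limma adjusted p 0.00303).

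Cldn10 (ENSMUSG00000022132, chr14:118787908-118875489) encodes a member of the claudin family of tight junction proteins. It stood at 13.4 to 16.8 FPKM in Ct (median 14.2), 13.7 to 20.0 in dTg (median 14.6), and 21.7, 22.9 and 19.8 in dTgDox. Of the 3 dTgDox libraries, 2 were above all 12 without doxycycline, and replicate 3 fell short of dTg replicate 4 only. It rose 1.35-fold over dTg (log2 difference 0.44, SE 0.11, limma adjusted p 0.0113) and 1.47-fold over Ct (0.55, SE 0.11, adjusted p 0.00252). The call against dTg was lost without dTgDox replicate 2 (adjusted p 0.0561). RefSeq gives Cldn10 more than 1 start site, and a value per gene does not say which transcripts were counted.

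The water channel and urea transporter genes were both higher in dTgDox. Aqp4 (ENSMUSG00000024411, chromosome 18, 15389496 to 15410982) encodes aquaporin-4, the water channel of astrocyte endfeet. Its level was 20.6 to 33.1 FPKM in Ct (median 25.5), 25.2 to 31.3 in dTg (median 27.6), and 40.1, 31.9 and 41.9 in dTgDox. All 3 dTgDox values were above every dTg value, and replicate 2 was below Ct replicates 1 and 5. The log2 difference from dTg was 0.43 (SE 0.13, limma adjusted p 0.0345, 1.35-fold) and that from Ct 0.50 (SE 0.13, adjusted p 0.0161, 1.41-fold). The call against dTg was lost without any 1 of dTg replicates 2 (0.0575), 5 (0.0644), 6 (0.0503) and 7 (0.0536) and of dTgDox replicates 1 (0.134) and 3 (0.157), and that against Ct without dTgDox replicate 1 (0.0774) or 3 (0.0894).

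Slc14a1 (ENSMUSG00000059336, chromosome 18, 78100091 to 78142119) encodes the urea transporter UT-B, which in brain is found in astrocytes. It was the lowest of the 10 genes and had the largest fitted difference among them in both comparisons with doxycycline. Its level was 1.91 to 3.23 FPKM in Ct (median 2.65), 2.60 to 3.33 in dTg (median 2.75), and 8.01, 6.37 and 7.52 in dTgDox. Every dTgDox library was above all 12 libraries without doxycycline, with a gap from 3.33 to 6.37 FPKM. It rose by 1.22 on the log2 scale over dTg (SE 0.13, limma adjusted p 1.28e-05), a fold of 2.33 with a 95% interval from 1.94 to 2.81. Against Ct the log2 difference was 1.36 (SE 0.13, limma adjusted p 4.04e-06). Both calls held without any 1 of the 15 libraries, with log2 differences of 1.16 to 1.31 against dTg and 1.30 to 1.45 against Ct. The ratio of Slc14a1 to Aqp4 was 0.096 ± 0.020 in Ct (SD, n = 6), 0.102 ± 0.013 in dTg (n = 6) and 0.193 ± 0.012 in dTgDox (n = 3). The dTgDox ratios, 0.179 to 0.200, did not overlap those of the other groups, 0.079 to 0.131. This ratio was not among those planned, and Slc14a1 alone already separated the groups, so it is no further result.

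Of 14 further genes of the endfoot and of water and ion balance, all tested, 2 rose and 1 fell in dTgDox against dTg, with a median log2 difference of 0.02. That count is near the 18.9% of all genes tested that passed. Mlc1, a membrane protein gene of endfeet, rose from 56.8 ± 5.07 FPKM in dTg to 72.3 ± 2.75 in dTgDox (log2 difference 0.35, limma adjusted p 0.0113). Dag1, which encodes the dystroglycan that links endfeet to the basal lamina, fell from 23.8 ± 1.29 to 20.0 ± 2.35 FPKM (-0.25, limma adjusted p 0.0416). Against Ct, 3 of the 14 rose and 1 fell, and in dTg against Ct none passed.

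Aldh1l1 (ENSMUSG00000030088, chr6:90486427-90600203) encodes a folate enzyme of the cytosol, and it was the member that fell. Its RefSeq promoter (GRCm38.p6, chr6:90550543-90550842, plus strand, the same window and capitals as for Gja1) starts inside the span that GENCODE gives the gene.
Aldh1l1 promoter: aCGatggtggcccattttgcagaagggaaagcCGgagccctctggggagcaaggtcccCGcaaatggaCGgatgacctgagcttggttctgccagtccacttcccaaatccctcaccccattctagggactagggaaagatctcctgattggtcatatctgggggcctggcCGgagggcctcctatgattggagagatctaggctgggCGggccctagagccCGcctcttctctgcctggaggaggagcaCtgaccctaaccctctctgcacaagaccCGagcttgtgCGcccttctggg
Aldh1l1 stood at 19.1 to 26.7 FPKM in Ct (median 23.4), 19.6 to 33.0 in dTg (median 23.4), and 16.7, 18.8 and 14.2 in dTgDox. All 3 dTgDox values were below all 12 values without doxycycline, with a narrow gap from 18.8 to 19.1 FPKM. It fell by 0.51 on the log2 scale against dTg (SE 0.15, limma adjusted p 0.028) and by 0.47 against Ct (SE 0.15, adjusted p 0.0399). The call against dTg was lost without dTgDox replicate 1 (0.0797) or 3 (0.147), and that against Ct without any 1 of Ct replicates 2 (0.0692), 3 (0.0742) and 6 (0.0663) and of dTgDox replicates 1 (0.102) and 3 (0.189). The ratio of Aldh1l1 to Cldn10 in the same library was 1.61 ± 0.29 in Ct (SD, n = 6), 1.53 ± 0.24 in dTg (n = 6) and 0.77 ± 0.05 in dTgDox (n = 3). The dTgDox ratios, 0.716 to 0.821, did not overlap those of dTg, 1.10 to 1.72, or of Ct, 1.21 to 1.91. This ratio was not among those planned, and it sets a gene that fell over one that rose. Its separation therefore follows from the values above and is no further result. The share of other gene pairs that separate in this way is not given.

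S100b (ENSMUSG00000033208, chr10:76253853-76261159) encodes a calcium-binding protein that astrocytes make and secrete, and which some oligodendrocytes make as well. Its promoter (GRCm38.p6, chr10:76253586-76253885, plus strand) is shown in the same way, as that of a gene whose dTgDox values lay above those of the 12 libraries without doxycycline compared here.
S100b promoter: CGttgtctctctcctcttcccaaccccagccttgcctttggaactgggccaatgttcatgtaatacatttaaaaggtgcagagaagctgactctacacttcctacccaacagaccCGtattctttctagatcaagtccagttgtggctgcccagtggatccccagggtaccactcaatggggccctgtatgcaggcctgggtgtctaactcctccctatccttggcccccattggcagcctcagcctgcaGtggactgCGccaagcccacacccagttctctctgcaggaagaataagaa
S100b stood at 55.8 to 75.0 FPKM in Ct (median 66.1), 56.6 to 66.6 in dTg (median 63.9), and 79.1, 80.6 and 86.0 in dTgDox. Every dTgDox library was above all 12 libraries without doxycycline. The rise over dTg was 1.30-fold, a log2 difference of 0.38 (SE 0.08, limma adjusted p 0.00563), and that over Ct 1.26-fold, a difference of 0.33 (SE 0.08, adjusted p 0.0134). The call against Ct was lost without dTgDox replicate 3 (adjusted p 0.0706).

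The 3 promoters shown differ in CpG content, with 3 in S100b, 8 in Gja1 and 9 in Aldh1l1, next to a median of 7 over the 32851 mouse promoters of the RefSeq table. Of those promoters, 31.4% hold at most 3 CpG and 45.8% at least 9. The table has 9 promoters for 8 of the 10 genes, with more than 1 for Cldn10. Searched on both strands, the full palindromic nuclear factor I motif was in 0 of 9 (0.037% of all promoters), the SOX motif ACAATGG in 0 of 9 (3.66%), and the letters TATAAA in 1 of 9, that of Slc1a3 (13.6%), on the strand opposite to the gene and well before the start site. These searches cover only the letters of these windows. The full nuclear factor I motif is so rare that finding it in 0 of 9 says nothing about nuclear factor I sites.

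Of 11 astrocyte transcription factor genes, all tested, 3 rose in dTgDox against dTg and 3 against Ct, and none passed in dTg against Ct. Zbtb20, which encodes a zinc finger factor of astrocytes and of hippocampal pyramidal neurons, rose from 4.72 ± 0.72 FPKM in dTg to 16.5 ± 3.97 in dTgDox (log2 difference 1.69, limma adjusted p 0.00016). Nfib and Nfia, nuclear factor I genes of the astrocyte lineage, rose by 0.49 (limma adjusted p 0.00134) and 0.30 (0.041). Sox9, a marker of astrocyte nuclei, differed by 0.00 (limma adjusted p 0.991).

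Of 30 other homeostatic astrocyte genes, all tested, 8 rose and 2 fell in dTgDox against dTg, with a median log2 difference of 0.12, and 7 rose and 2 fell against Ct. Chrdl1, which encodes a secreted antagonist of bone morphogenetic proteins, fell from 7.63 ± 1.32 FPKM in dTg to 1.80 ± 0.14 in dTgDox. Its log2 difference of -1.81 (SE 0.15, limma adjusted p 1.69e-06) was the largest of this list in either direction, and its highest dTgDox value, 1.90 FPKM, was below the lowest Ct value, 5.08. Ttyh1, a chloride channel gene of the tweety family, fell from 367 ± 30.1 to 307 ± 8.44 FPKM (-0.26, limma adjusted p 0.012). Among those that rose were Pla2g7, a secreted phospholipase gene (0.60, limma adjusted p 0.00871), Ndrg2, a cytoplasmic protein gene of astrocytes (0.43, 0.00813), and Clu, which encodes the secreted chaperone clusterin (0.32, 0.0226).

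Of 17 reactive astrocyte genes, 15 were tested, and 4 rose in dTgDox against dTg and 3 against Ct. Gfap, the intermediate filament gene of astrocytes, rose from 33.7 ± 9.03 FPKM in dTg to 202 ± 74.5 in dTgDox (2.55, limma adjusted p 0.000147), and Serpina3n, C4b and Emp1 rose by 2.51, 1.47 and 0.48. The whole list summed to 80.2 to 133 FPKM in Ct, 91.5 to 124 in dTg and 211 to 412 in dTgDox, and Lcn2 was at 0 in some of the 15 libraries. In dTgDox against dTg, the median log2 differences of these astrocyte-related lists thus ran from -0.12 for the glutamate cycle to 0.17 for the reactive genes. That of the 10 genes was 0.35. Medians of the marker lists of other cell types ran wider, from -1.15 (striatal medium spiny neuron) to 2.85 (hippocampal CA pyramidal), with 0.71 for oligodendrocytes.

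**Figure D5:**
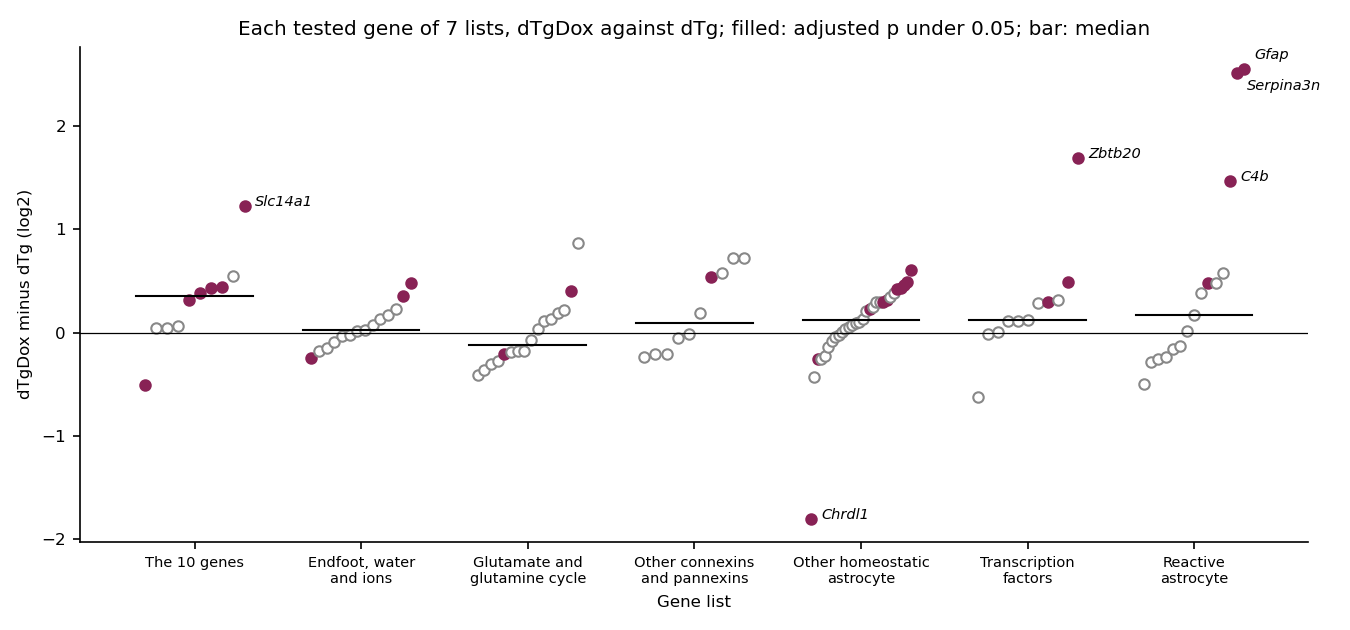
Log2 difference of dTgDox from dTg (vertical axis) for each tested gene of 7 lists, sorted within each list, with filled points for an adjusted p under 0.05 in limma and a bar at the list's median. Slc14a1 is the highest point of the 10 genes, and the largest differences elsewhere are those of Gfap, Serpina3n, Zbtb20 and C4b, which rose, and Chrdl1, which fell.

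To find genes with a like pattern, the standardized log2 levels of the 10 genes were averaged per library and compared with 11158 genes with a mean of at least 5 FPKM. This mean profile was highest in dTgDox replicate 1 (1.26), then in dTgDox replicate 2 (0.843), dTg replicate 4 (0.838) and dTgDox replicate 3 (0.515), and lowest in Ct replicate 4 (-0.828). Among the genes most like it were Paqr8 (Pearson r 0.892), Pck2 (0.879), Tshz2 (0.875), Cyp2j9 (0.872) and Pcdhgc3 (0.866), over 15 libraries. The correlations are a description over libraries that share groups and tissue makeup.

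The library labelled dTg replicate 1 had a different balance of the 10 genes, given here as values with no test since it is 1 library. Slc14a1 was 4.87 times the Ct mean (12.4 FPKM), S100b 4.48 times (293 FPKM), Aqp4 3.29 times (88.5 FPKM) and Slc1a3 2.45 times (370 FPKM). Slc1a2 was 0.287 times (80.8 FPKM) and Glul 0.597 times (401 FPKM). These 6 genes lay outside the range of the other 15 libraries. Gjb6 (1.63 times), Gja1 (1.31 times), Aldh1l1 (1.05 times) and Cldn10 (0.958 times) lay within it. The ratio of Slc1a2 to Slc1a3 was 0.219 there, against a lowest ratio of 1.39 in Ct. In the same library the Bergmann glia markers Gdf10, Dao and A2m summed to 137 FPKM, against 2.23 to 7.28 in the other 15, and the cortical excitatory neuron markers summed to 201 against 566 to 839.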

How the data were processed

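PolyA RNA-seq libraries were read from 1 end, per the labels' protocols. The submitters' processing notes name TopHat2 and DESeq, without versions. The quantifier is not given in the sources used here, nor are its annotation and build. The deposited files hold 1 FPKM value per Ensembl gene, judged from the values, which step by a constant divided by gene length. Depth is an estimate, so no counting intervals were computed. Symbols and coordinates come from GENCODE M21 (GRCm38), which named 45225 of 46073 identifiers. Files were compared value by value: of 17 files, 16 libraries are distinct, and the NTg file was left out as a copy of dTg replicate 1.

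limma 3.58.1 (R 4.3.3) was fitted to log2(FPKM + 0.5) of 15 libraries, keeping genes that reached 0.5 FPKM in 3 or more, with 1 mean per group and moderation that was trended and robust. P-values are two-sided and adjusted over 19064 genes (Benjamini-Hochberg), with a threshold of 0.05. The fit was tested on simulated data. The members and lists were chosen with earlier results of these data known. Named genes are the 10 members, up to 5 genes of each list that passed in dTgDox against dTg with the smallest adjusted p, and the 6 most like the members' mean profile. Some genes that this rule names are not reported here. Sox9 was named in addition, chosen after its values were seen. Alternatives were other pseudocounts, filters, scalings, sets of libraries, weights, moderation, a replicate block and leaving out each library.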

Additional observations from a re-analysis of the deposited data

Results flagged for a closer look

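In groups of 4 to 10 libraries, a value was singled out when its gap to the nearest other value exceeded Dixon's critical share of the group's range. Of 20 combinations of the 10 genes with Ct and dTg (dTg replicate 1 included), 6 were singled out. The rule singles out about 1 in 20 by chance, but only for independent values, and these genes share libraries. In addition, dTg replicate 1 was already known to stand apart, so the count cannot be read as an excess. The library labelled dTg replicate 1 gave 4 of the 6: Aqp4 at 88.5 FPKM, where the nearest dTg library had 31.3, Slc1a3 at 370 against 169, S100b at 293 against 66.6 and Slc14a1 at 12.4 against 3.33. The other two were Aldh1l1 at 33.0 FPKM in dTg replicate 4, against 24.8 in the nearest library, and Cldn10 at 16.8 FPKM in Ct replicate 5, against 14.6. What sets these values apart was not tested.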

How the results depend on the processing

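Each of 36 results was recomputed under 29 alternatives, 15 of which leave out 1 library, and 953 of 1044 values kept direction and call, or for counts stayed within 1.5 times. Leaving out dTg replicates 6 and 7 together was added after seeing the data. Genes passing in dTg against Ct numbered 0, and 4 without dTg replicates 6 and 7, 1 with a pseudocount of 0.1 and 0 to 1 with 1 library left out. In dTgDox against dTg, 3596 genes passed, and 1537 with all 16 libraries (59.1% higher, against 51.1% in the 15), 1562 with the replicate block and 2077 to 3715 with 1 library left out (2077 without dTgDox replicate 1, 2155 without replicate 3). In dTgDox against Ct, 3758 passed, and 1504, 2394 and 2229 to 3872 in the same settings (2229 without dTgDox replicate 1, 2273 without replicate 3). Of the 10 genes, 6 passed in both, and against dTg 2 with 16 libraries, 2 with the replicate block (Cldn10 and Slc14a1) and 3 to 7 with 1 library left out, and against Ct 3, 3 and 3 to 6.

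The replicate numbers did not pair the samples: over 10 pairs the correlations of deviations were -0.188 to 0.08, none over 0.1, and 2 samples correlated best with their own number. With 16 libraries, Slc14a1 against dTg had a limma adjusted p of 0.11 (log2 difference 0.94), S100b 0.942 (0.07), Aqp4 0.758 (0.20) and Gja1 0.128 (0.27). Aldh1l1 passed neither with 13 libraries (0.051 against dTg, 0.0823 against Ct) nor, against Ct, without a filter (0.0644). Aqp4 against dTg missed with 13 libraries (0.0606), without dTg replicates 6 and 7 (0.0814), without a filter (0.0552) and scaled to equal sums (0.0566). Gjb6 passed with array quality weights (0.0273 against dTg, 0.0134 against Ct).

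Signs turned only for differences that did not pass. In dTg against Ct these were Gjb6 (-0.0069 with 13 libraries, -0.0808 without dTg replicates 6 and 7, -0.0144 with the block), S100b (0.0034 with 13 libraries, 0.0025 without dTg replicates 6 and 7, 0.2622 with 16 libraries), Slc1a2 (-0.1940 with 16) and Glul (0.0004 by upper quartile). Against dTg, Slc1a3 turned with 16 libraries (-0.1169), and against Ct, Glul with the block (-0.0111). With 1 library left out, dTg against Ct ran from -0.0518 to 0.0959 for Aldh1l1, -0.0047 to 0.1300 for Aqp4, -0.0403 to 0.1712 for Gjb6, -0.0468 to 0.0232 for Glul and -0.0203 to 0.1307 for Slc1a2. Glul ran from -0.0200 to 0.1151 in dTgDox against Ct and -0.0066 to 0.1286 against dTg, and Slc1a2 from -0.0612 to 0.1315 against dTg. The causes were not tested. Precision is limited by 3 dTgDox libraries.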
